A study of Mus musculus with 12 samples.

Results

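The translation initiation factors were taken as all genes whose name begins with Eif, then a digit from 1 to 6, then lower-case letters or digits only. The rule finds 56 of the 55335 genes counted, and it takes in the eIF2 alpha kinases (Eif2ak) and the eIF4E-binding inhibitors (Eif4ebp). 53 of the 56 had enough reads to be tested. The RNA came from muscle stem cells (MuSCs) of mice aged 3 to 6 months that carry a Pax7-ZsGreen reporter, sorted as ZsGreen+ from the hindlimb at 3 libraries per group, and every group shares this strain, in which Pax7, a transcription factor of satellite cells, drives the reporter. F cells were lysed as they came off the sorter. Uncompressed cultures in growth medium were taken after 2 days (2d-U) or after 5 days (5d-U), and the 2+3d-C cultures spent 2 days uncompressed and then 3 days pressed flat under a device with PDMS pillars. The paper states that each sorted batch was divided at random among the conditions. Neither the labels nor the methods say which libraries share a sort or an animal, so the p-values measure the spread between libraries, which may in part be technical.

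Initiation factors bring the small ribosomal subunit to the 5′ end of an mRNA and set it on the start codon. eIF4F (the cap-binding eIF4E, the scaffold eIF4G and the helicase eIF4A) prepares the mRNA, eIF3 holds the small subunit, eIF1, eIF1A and eIF5 read the start codon, and eIF2 carries the initiator tRNA and is recharged with GTP by eIF2B. 4E-BPs block eIF4E, and the eIF2 alpha kinases block the recharging of eIF2, which is how cells under stress and resting stem cells are known to hold translation down.

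The libraries held 12540745 to 62424851 reads on genes, and the members took 1.05% to 2.48% of them. Levels are given as RPKM (reads per kb of exon, scaled by library size and TMM factor), which may be compared between genes, and are listed in the order of the replicate numbers (F replicates 1, 4 and 5, 2d-U replicates 1, 2 and 3, 5d-U replicates 1, 2 and 6, and 2+3d-C replicates 4, 5 and 10). Fold changes come from 1 edgeR fit of all groups and 22635 genes, and calls were made at an adjusted p under 0.05. 5d-U replicate 6 and 2+3d-C replicate 5 stood apart: their TMM factors were 0.669 and 0.661 against 0.856 to 1.26 elsewhere, the deviation of genes from the mean of the other libraries of the group fell with exon length (Spearman's rho -0.41 and -0.46), and the members summed to 9766 and 11858 RPKM against 2436 to 6268. In the other libraries rho ran from -0.28 (2d-U replicate 2) to 0.46 (2+3d-C replicate 4), with 0.38 in 5d-U replicate 1 and in F replicate 5. F replicates 4 and 5 and 5d-U replicate 1 held 5.03, 7.13 and 3.81 reads per kb of exon on 2089 genes of families that muscle does not use, against at most 0.635 elsewhere. A model term for such reads, used as an alternative fit, marked libraries above 0.5 reads per kb. It therefore also marked 5d-U replicate 6 (0.635). Pax7 was counted in all 12 libraries, and the 8 muscle stem cell markers summed to 2524 to 5180.1 CPM across F, 1170.0 to 1412 across 2d-U, 337 to 941 across 5d-U and 5002 to 9955 across 2+3d-C. Endothelial markers (5 genes) summed to 789 to 1314 CPM in F and 51.2 to 170.1 in 2+3d-C against at most 29.0 in the uncompressed cultures, and the fibroadipogenic, glial and erythroid lists were likewise highest in F and then in 2+3d-C. Pericyte and smooth muscle markers (5 genes) summed to 817 to 1021 CPM in F, 64.5 to 623 in 5d-U and 214 to 372 in 2+3d-C, with the ranges of 5d-U and 2+3d-C overlapping, and at most 103 in 2d-U. Immune markers (6 genes) summed to 136 to 239.9 CPM in F and at most 23.3 in any cultured library. The 6 myoblast and muscle genes summed to 1404 to 3915 CPM in 5d-U and 3913 to 5675 in 2+3d-C, with 1 of them higher and 4 lower under compression than in 5d-U. The part of these lists in the results was not tested. In bulk RNA, fewer cells of a type and less RNA per cell cannot be told apart.

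Eif5a, the hypusinated factor that keeps ribosomes moving through difficult stretches, was the most abundant member in 11 of 12 libraries (Eif1 in F replicate 1), at 599.9 ± 50.1 RPKM in F (SD, n = 3) and 2190.1 ± 144 in 2d-U. It made up 14.4% to 25.6% of the summed RPKM of the members across F, 34.6% to 38.1% across 2d-U, 28.5% to 42.2% across 5d-U and 22.3% to 32.0% across 2+3d-C. Eif1, which keeps the scanning subunit open until it meets AUG, came next by the mean over all 12 libraries, and Eif4a1 followed. The order below Eif5a differed between groups: the 5d-U mean of Eif4ebp1 exceeded that of Eif1, and Eif4a1 lay below Eif6 in both uncompressed cultures. At the other end, the kinases Eif2ak2, Eif2ak3 and Eif2ak4 stayed under 6 RPKM in every library. Eif4e1b, Eif4ebp3 and Eif2c5 (an Argonaute-family name that the rule catches) had too few reads for the test, with at most 0.388 RPKM in any library.

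Compression at matched culture time is read from 2+3d-C against 5d-U. 4 members rose (Eif1, Eif4a1, Eif4g1 and Eif4g2) and 4 fell (Eif2b4, Eif2d, Eif4e2 and Eif3k), which is 7.55% of the 53 tested members in either direction, against 9.14% of all tested genes higher and 13.4% lower, and 15.1% in all against 22.6%. Of the 10816 genes averaging 5 CPM or more, 18.0% were higher and 19.5% lower, 37.5% in all. The members were thus called no more often than the genes at large, and less often than these more abundant genes. The members' median log2 fold change was 0.06, that of all tested genes -1.05 and that of the 10816 more abundant genes -0.06. The libraries did not overlap for 16 members, 8 higher and 8 lower in 2+3d-C (15.1% each), against 12.6% and 29.7% of all tested genes. The split depended on scaling and library: DESeq2 called 10 higher and 5 lower, library size without TMM 2 and 7, and the fit without 5d-U replicate 6 called 3 members in all, without 2+3d-C replicate 4 or 10 it called 4, and without 2+3d-C replicate 5 it called 13. Calls over all tested genes moved from 2068 higher and 3042 lower to 3223 and 4058 with DESeq2 and 1693 and 3446 with library size alone. They were 1338 and 1727 without 5d-U replicate 6 and 2222 and 3045 without 2+3d-C replicate 5.

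Against 2d-U, the culture on which compression began, 9 members were higher in 2+3d-C (17% of those tested, against 16% of all genes) and 3 were lower (5.66% against 8.63%), 22.6% in all against 24.6%. Of the 10816 genes averaging 5 CPM or more, 23.0% were higher and 14.1% lower, 37.1% in all. For 13 members every 2+3d-C library was above those of 2d-U (24.5% against 18.1%) and for 9 below (17% against 17.4%). The higher ones were Eif1, Eif2ak3, Eif3a, Eif4a1, Eif4a2, Eif5, Eif1a, Eif5b and the Y-linked Eif2s3y, and the lower ones Eif2d, Eif2b4 and Eif2b5. Library size without TMM turned this split to 3 higher and 10 lower and moved the members' median log2 fold change from 0.08 to -0.47. The total fell from 12 to 6, 4 and 5 without 2d-U replicate 1, 2 and 3 and to 7 without 2+3d-C replicate 4. With 5d-U replicate 6 and 2+3d-C replicate 5 both left out, 3 members were higher and 6 lower, and of all tested genes 2950 and 2317. Library size alone gave 2540 and 3143 of all tested genes, and the fit without 2d-U replicate 2 gave 2340 and 1421. The main fit gave 3619 and 1954.

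**Figure D1:**
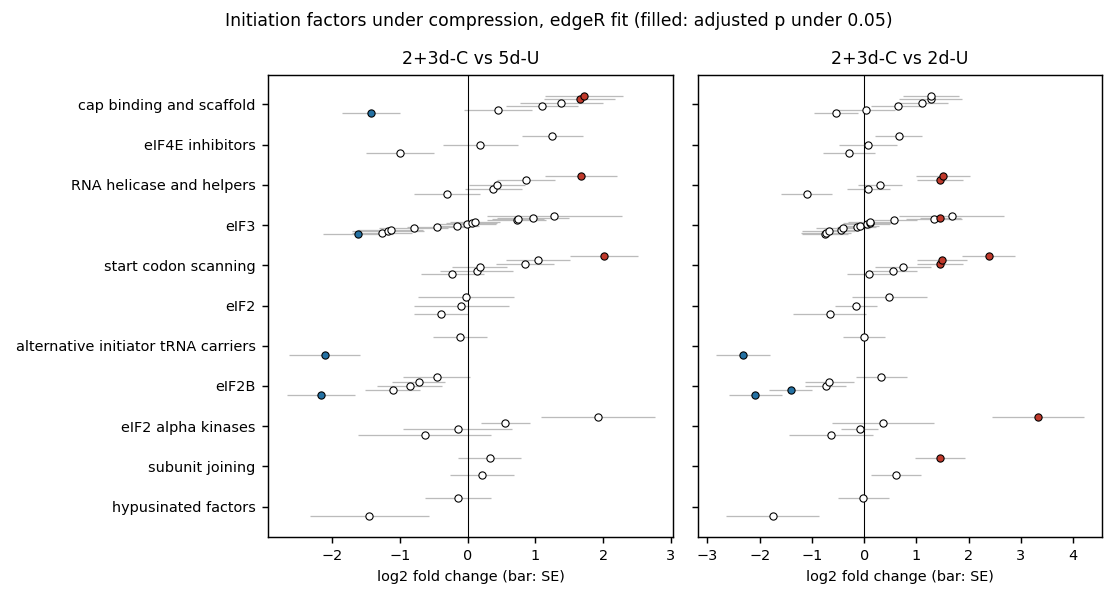
Log2 fold change of the tested members (points, with SE as bars) by role in 2+3d-C against 5d-U (left) and against 2d-U (right), filled where the adjusted p is under 0.05 (red higher, blue lower). The Y-linked Eif2s3y is left out. Eif1 lies at 2.01 and 2.38, and Eif2b4 and Eif2d lie at -2.17 and -2.11 on the left.

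The promoters of members that moved are shown to let their letters be compared. RefSeq start sites (build GRCm38.p6) gave 57 windows of 250 bases before to 50 after the start for 44 of the 56 members. The stretches before the start that hold no annotated exon are printed 5′ to 3′ for Eif1 and Eif4a1, which rose in 2+3d-C against both cultures, Eif2d and Eif3k, which fell against 5d-U, and Eif2ak3, which rose against 2d-U. Capitals mark matches on either strand to an E-box (CACGTG), to the inner part of a cAMP response element (TGACG), to the AP-1 site (TGANTCA), to the CCAAT box (CCAAT) or to an SP1 site (GGGCGG), and matches may overlap. Searches for the ETS motif (CCGGAAG), the TATA box (TATAAA), the amino acid response motif (TGATGNAA) and the full cAMP response element (TGACGTCA) found none in these stretches.
Eif1, chr11:100319699-100319884 (+): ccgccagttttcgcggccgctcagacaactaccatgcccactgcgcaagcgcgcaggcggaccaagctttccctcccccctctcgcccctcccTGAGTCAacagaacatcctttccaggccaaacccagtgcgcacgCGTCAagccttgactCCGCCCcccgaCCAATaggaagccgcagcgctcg
Eif4a1, chr11:69672424-69672673 (-): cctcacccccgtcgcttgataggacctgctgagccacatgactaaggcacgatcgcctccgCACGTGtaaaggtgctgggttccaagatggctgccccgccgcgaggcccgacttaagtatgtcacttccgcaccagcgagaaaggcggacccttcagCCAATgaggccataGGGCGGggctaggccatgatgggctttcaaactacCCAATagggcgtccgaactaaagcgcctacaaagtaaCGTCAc
Eif2d, chr1:131152957-131153180 (+): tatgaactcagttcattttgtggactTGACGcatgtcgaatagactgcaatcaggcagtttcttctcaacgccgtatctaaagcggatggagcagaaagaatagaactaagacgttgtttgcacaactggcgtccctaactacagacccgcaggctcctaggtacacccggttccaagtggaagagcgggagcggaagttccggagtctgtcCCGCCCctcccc
Eif3k, chr7:28981889-28982049 (-): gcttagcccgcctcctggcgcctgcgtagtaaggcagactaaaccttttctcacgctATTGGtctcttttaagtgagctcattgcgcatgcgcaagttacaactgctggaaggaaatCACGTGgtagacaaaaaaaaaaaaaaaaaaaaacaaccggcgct
Eif2ak3, chr6:70844265-70844514 (+): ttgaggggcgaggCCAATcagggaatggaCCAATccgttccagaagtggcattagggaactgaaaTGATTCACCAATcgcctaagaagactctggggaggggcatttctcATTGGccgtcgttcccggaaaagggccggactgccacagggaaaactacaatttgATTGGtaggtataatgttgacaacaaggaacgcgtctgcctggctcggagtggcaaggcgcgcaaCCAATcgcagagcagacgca

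TGANTCA, the site that dimers of Fos and Jun can bind, was found in 5 of the 57 member windows (8.77%, Eif1 and Eif2ak3 among them) and in 7.81% of all 32851 windows. The Eif2ak3 stretch holds 6 matches to CCAAT, a motif found in 26.3% of member windows and 37.4% of all. CACGTG was found in 21.1% of member windows against 7.15% of all, TGACG in 47.4% against 20.8%, CCGGAAG in 33.3% against 8.86%, and GGGCGG in 70.2% against 35.7%. TATAAA was found in 7.02% against 13.6%. A start at C followed by 4 pyrimidines, the mark of mRNAs of the 5′ terminal oligopyrimidine class, was found in 3 windows (5.26%, Eif3f among them, against 2.51%). These are matches of letters and were not tested.

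Among the start codon factors, Eif1 had 1021, 459 and 346 RPKM in the F libraries, 251, 245 and 243 in those of 2d-U, 276, 255 and 425 in those of 5d-U and 889, 2187 and 779 in those of 2+3d-C. All 3 compressed libraries exceeded all 6 uncompressed ones, and F reached from the 5d-U range into that of 2+3d-C. Eif1 was 4.03-fold higher under compression than in 5d-U (log2 fold change 2.01, SE 0.50, adjusted p = 0.0109) and 5.21-fold higher than in 2d-U (log2 fold change 2.38, SE 0.51, adjusted p = 0.00403). The call held with every library left out in turn, and without 2+3d-C replicate 5 the log2 fold change against 5d-U was 1.38 (adjusted p = 0.0456). It was lost with both libraries that stood apart left out and with a model term for reads on silent families (adjusted p up to 0.126), while the call against 2d-U held in all 13 other settings and in each fit without a library (log2 fold change 1.76 without 2+3d-C replicate 5). The immediate-early gene Fos had 897, 1149 and 1093 CPM in the compressed libraries and 1.33 to 9.97 in the 6 uncompressed ones. It was highest in the F libraries (2167, 1867 and 2487 CPM), whereas Eif1 in F replicates 4 and 5 lay below all compressed libraries. The part of Fos in the level of Eif1 was not tested.

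Eif1a, a gene for eIF1A, had 84.7, 67.7 and 74.6 RPKM in the 2d-U libraries, 99, 119.9 and 91.3 in those of 5d-U and 197, 268 and 173 in those of 2+3d-C, and was higher under compression than in 2d-U (log2 fold change 1.49, SE 0.48, adjusted p = 0.0338). Eif5, the GTPase activator that acts once the start codon is found, had 94.3, 79.8 and 108 RPKM in the 2d-U libraries, 130.1, 94 and 205 in those of 5d-U and 249, 309.9 and 209.7 in those of 2+3d-C, and was also higher than in 2d-U (log2 fold change 1.45, SE 0.44, adjusted p = 0.0264). The compressed libraries lay above those of both uncompressed groups for either gene. Both calls against 2d-U were lost without any of 5 of the 6 libraries (each 2d-U library and 2+3d-C replicates 4 and 5, adjusted p up to 0.126 and 0.124) and with library size alone. The other 3 genes grouped here by their Eif1 names (Eif1b, Eif1ax and Eif1ad) passed neither test.

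Of the cap-binding and scaffold genes, the scaffolds Eif4g1 and Eif4g2 rose against 5d-U. Eif4g1 had 24.9, 27.6 and 50.3 RPKM in the F libraries, 49.7, 29 and 45.4 in those of 2d-U, 18.5, 24.8 and 18.2 in those of 5d-U and 101, 19.4 and 72.9 in those of 2+3d-C. 2 of the 3 compressed libraries were the highest of all, and replicate 5 lay among the 5d-U libraries. The difference from 5d-U was 3.15-fold (log2 fold change 1.66, SE 0.53, adjusted p = 0.0354). Eif4g2, a scaffold that lacks the eIF4E site and serves cap-independent initiation, had 203, 106 and 119 RPKM in the F libraries, 189, 135 and 167 in those of 2d-U, 45.6, 75 and 32.4 in those of 5d-U and 257, 39.5 and 205 in those of 2+3d-C. It was lower in each 5d-U library than in each F or 2d-U library, and 3.28-fold higher under compression than in 5d-U (log2 fold change 1.71, SE 0.57, adjusted p = 0.0444), again with replicate 5 inside the 5d-U range. The call of Eif4g1 was lost without any of 5 of the 6 libraries (all but 2+3d-C replicate 5, adjusted p up to 0.167), that of Eif4g2 without 5d-U replicate 1 or 6 or 2+3d-C replicate 4 or 10 (up to 0.177), and both with library size alone.

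Eif4e itself had 87.9, 32.4 and 34.1 RPKM in the F libraries, 55.8, 61.8 and 61.9 in those of 2d-U, 80.2, 74 and 126 in those of 5d-U and 80.8, 227 and 77.2 in those of 2+3d-C. The 5d-U and 2+3d-C ranges overlapped (log2 fold change 0.45, SE 0.50, adjusted p = 0.491), and without 2+3d-C replicate 5 the sign turned (log2 fold change -0.25). Its homologue Eif4e2 (4EHP), which binds the cap but not eIF4G and silences mRNAs, had 12.8, 12.2 and 10 RPKM in the F libraries, 34.4, 37.4 and 34.8 in those of 2d-U, 33.4, 52.5 and 111 in those of 5d-U and 22.9, 29.8 and 20.3 in those of 2+3d-C. The compressed libraries lay below the uncompressed cultures and above F. Eif4e2 was 2.69-fold lower than in 5d-U (log2 fold change -1.43, SE 0.43, adjusted p = 0.027), a call lost without 5d-U replicate 6 (log2 fold change -0.83, adjusted p = 0.172) or without 2+3d-C replicate 4 or 10.

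Of the helicase genes, Eif4a1 had 191, 37.1 and 127 RPKM in the F libraries, 199.9, 219 and 238 in those of 2d-U, 209, 193 and 184 in those of 5d-U and 463, 1005 and 403 in those of 2+3d-C. All 3 compressed libraries were above the other 9. The rise was 3.19-fold against 5d-U (log2 fold change 1.67, SE 0.52, adjusted p = 0.0336) and 2.85-fold against 2d-U (log2 fold change 1.51, SE 0.52, adjusted p = 0.0476). Eif4a2, its closest homologue, had 40.2, 16.4 and 24.8 RPKM in the F libraries, 16.4, 11.3 and 12.2 in those of 2d-U, 28, 20.5 and 11.5 in those of 5d-U and 37.7, 30.5 and 40.6 in those of 2+3d-C, higher under compression than in 2d-U (log2 fold change 1.45, SE 0.44, adjusted p = 0.0257) and with no call against 5d-U (log2 fold change 0.86, SE 0.43, adjusted p = 0.132). Without 2+3d-C replicate 5, without any 5d-U library (5d-U contrast), or without any 2d-U library or 2+3d-C replicate 4 (2d-U contrast) the calls of Eif4a1 were lost, with adjusted p up to 0.129 and 0.202. That of Eif4a2 was lost without any library of the contrast but 2+3d-C replicate 5 (up to 0.124). Eif4a3, the helicase of the exon junction complex, and the cofactors Eif4b and Eif4h passed neither test.

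**Figure D2:**
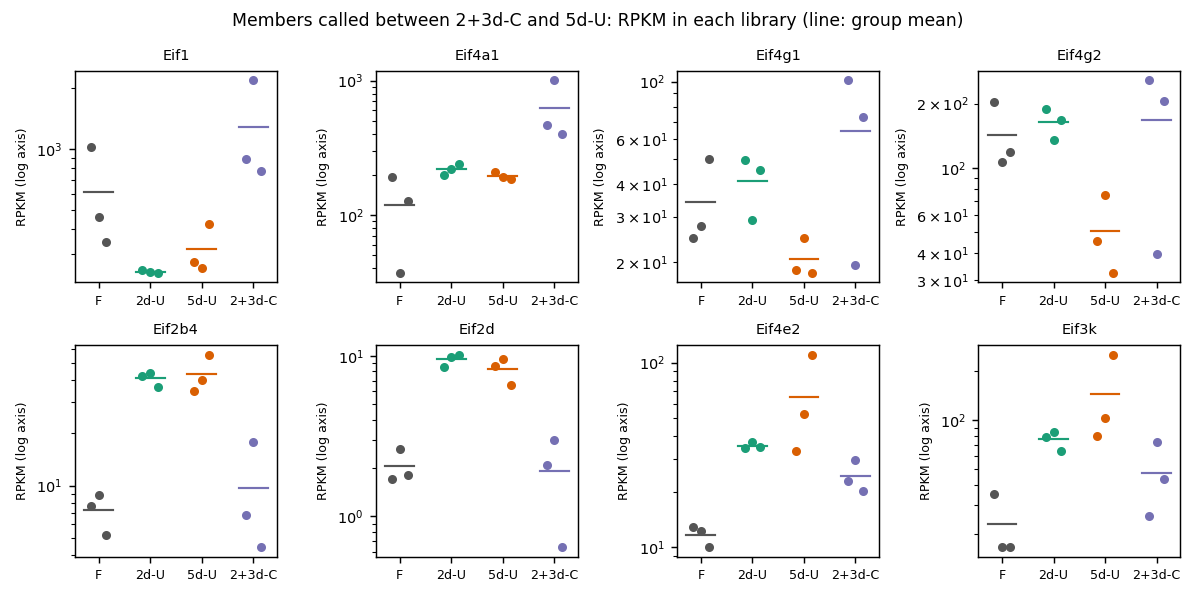
RPKM (log axis) of the 8 members called between 2+3d-C and 5d-U in each library (points, in replicate order) with the group mean (line). Eif2b4 and Eif2d lie near the F level in 2+3d-C and higher in both uncompressed groups, while 2+3d-C replicate 5 is the highest point for Eif1 (2187 RPKM) and Eif4a1 and the lowest compressed point for Eif4g1 and Eif4g2.

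eIF2B, the exchange factor of eIF2, has 5 subunits. Eif2b4 (delta) had 7.62, 8.79 and 5.26 RPKM in the F libraries, 42, 43.8 and 36.6 in those of 2d-U, 34.4, 39.9 and 55.8 in those of 5d-U and 6.8, 17.8 and 4.46 in those of 2+3d-C. The 3 compressed libraries and the 3 F libraries shared a range and were below all 6 uncompressed libraries. Eif2b4 was 4.5-fold lower under compression than in 5d-U (log2 fold change -2.17, SE 0.50, adjusted p = 0.0069) and 4.23-fold lower than in 2d-U (log2 fold change -2.08, SE 0.50, adjusted p = 0.0081), with log2 fold changes of -2.95 and -2.86 without 2+3d-C replicate 5. Both calls held with each library left out.

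Eif2b5 (epsilon), the catalytic subunit, had 23.8, 27.5 and 18.8 RPKM in the F libraries, 92.9, 95.4 and 81.1 in those of 2d-U, 56.7, 113 and 49.6 in those of 5d-U and 37.5, 42 and 22.4 in those of 2+3d-C and fell against 2d-U (log2 fold change -1.40, SE 0.41, adjusted p = 0.023), a call lost without any library of the contrast but 2+3d-C replicate 5 (adjusted p up to 0.106). Eif2b1, Eif2b2 and Eif2b3 passed neither test. 1 of 5 subunits was thus called lower against 5d-U (2 with library size alone) and 2 of 5 against 2d-U (4 with library size alone, and 4 with 5d-U replicate 6 and 2+3d-C replicate 5 both left out), and none higher. Of all tested genes 13.4% were lower against 5d-U and 8.63% against 2d-U, and of those averaging 5 CPM or more 19.5% and 14.1%. Relative to the mean of the other 4 subunits in the same library, which no scaling changes, Eif2b4 stood at 0.347, 0.434 and 0.30 in the F libraries, 0.653, 0.655 and 0.591 in those of 2d-U, 0.675, 0.559 and 0.562 in those of 5d-U and 0.244, 0.28 and 0.0986 in those of 2+3d-C. F and 2+3d-C lay below both uncompressed groups without overlap. This ratio and those of Eif2d to Eif2a and Eif4ebp1 to Eif4e below are not all that were computed. Eif4ebp1 to Eif4a1, summed eIF2B to Eif2s1 and Eif1 to Eif5 also parted 2+3d-C from both uncompressed groups. Eif4g1 to Eif4e did not (0.231, 0.335 and 0.144 in 5d-U, 1.25, 0.0858 and 0.945 in 2+3d-C). Eif3k to Eif3l overlapped with 2d-U (0.622, 0.702 and 0.524 there, 0.314, 0.712 and 0.505 in 2+3d-C).

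Eif2d, which can deliver initiator tRNA without eIF2 and also recycles ribosomes, was likewise lower in each F and 2+3d-C library than in each uncompressed one. It had 1.71, 2.63 and 1.82 RPKM in the F libraries, 8.55, 9.78 and 10.2 in those of 2d-U, 8.67, 9.55 and 6.56 in those of 5d-U and 2.09, 3.01 and 0.643 in those of 2+3d-C. It was 4.33-fold lower under compression than in 5d-U (log2 fold change -2.11, SE 0.52, adjusted p = 0.00962) and 4.98-fold lower than in 2d-U (log2 fold change -2.32, SE 0.52, adjusted p = 0.00551), and these calls held with each library left out. Eif2a, the other carrier outside eIF2, had 17.8, 15.9 and 12.7 RPKM in 5d-U against 11.7, 16.1 and 15.2 under compression, overlapping ranges. The ratio of Eif2d to Eif2a within a library was 0.606, 0.702 and 0.677 for 2d-U and 0.487, 0.60 and 0.517 for 5d-U against 0.179, 0.187 and 0.0423 in 2+3d-C. In F it ran from 0.165 to 0.603 and reached into the ranges of 2+3d-C and 5d-U.

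No eIF2 subunit and no eIF2 alpha kinase was called against 5d-U. Eif2s1, the alpha subunit that the kinases phosphorylate, had 73.7, 40.6 and 33 RPKM in the F libraries, 133, 135 and 142 in those of 2d-U, 139.7, 147 and 195 in those of 5d-U and 84.4, 173 and 109.6 in those of 2+3d-C, and its 5d-U and 2+3d-C ranges overlapped (log2 fold change -0.39, SE 0.40, adjusted p = 0.452). Of the 4 kinases, Eif2ak3 (PERK, the sensor of the endoplasmic reticulum) had 3.87, 2.44 and 4.0 RPKM in the F libraries, 0.445, 0.0584 and 0.272 in those of 2d-U, 0.447, 0.965 and 0.648 in those of 5d-U and 3.17, 0.52 and 4.12 in those of 2+3d-C. It was lowest in 2d-U and higher in 2+3d-C (10-fold, log2 fold change 3.32, SE 0.89, adjusted p = 0.0142), a call lost without 2d-U replicate 2 (adjusted p = 0.0563), and 3.96 on the log2 scale without 2d-U replicate 1. Against 5d-U it missed the threshold (log2 fold change 1.92, SE 0.84, adjusted p = 0.0989), and passed without 2+3d-C replicate 5 (adjusted p = 0.0367), whose 0.520 RPKM lay within the 5d-U range.

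Eif2ak1 (HRI) had 6.66, 8.05 and 6.3 RPKM in 5d-U against 11.4, 9.72 and 9.78 under compression, ranges that did not overlap (log2 fold change 0.56, SE 0.36, adjusted p = 0.229). Eif2ak2 (PKR) had 1.12, 1.13 and 3.01 RPKM in 5d-U against 0.992, 0.0236 and 2.35 under compression (log2 fold change -0.63, SE 0.98, adjusted p = 0.63). Eif2ak4 (GCN2, the sensor of uncharged tRNA) had 2.78, 1.56 and 1.41 RPKM in 5d-U against 4.3, 0.323 and 0.551 under compression (log2 fold change -0.14, SE 0.80, adjusted p = 0.902). None of the 3 was called. DESeq2 called Eif2ak1 and Eif2ak3 higher under compression than in 5d-U.

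The 4E-BPs were not called between 2+3d-C and 5d-U. Eif4ebp1 had 64.7, 44.9 and 44.3 RPKM in the F libraries, 188, 231 and 207 in those of 2d-U, 183, 263 and 575 in those of 5d-U and 75.5, 272 and 163 in those of 2+3d-C. The compressed libraries lay above F and reached from below to within the 5d-U range (log2 fold change -1.0, SE 0.50, adjusted p = 0.131), and the log2 fold change was -0.40 without 5d-U replicate 6. Per Eif4e in the same library, Eif4ebp1 stood at 0.736, 1.39 and 1.3 in the F libraries, 3.37, 3.73 and 3.34 in those of 2d-U, 2.28, 3.55 and 4.55 in those of 5d-U and 0.935, 1.2 and 2.11 in those of 2+3d-C. On this scale every F and 2+3d-C library was below every uncompressed library. Eif4ebp2 had 4.56, 1.95 and 6.14 RPKM in 5d-U against 3.66, 5.55 and 5.19 under compression (log2 fold change 0.19, SE 0.55, adjusted p = 0.808).

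Of the 14 eIF3 genes, Eif3k fell against 5d-U and Eif3a rose against 2d-U. Eif3k, a peripheral subunit, had 35.3, 16.5 and 16.6 RPKM in the F libraries, 78.6, 84.8 and 64.6 in those of 2d-U, 80.2, 104 and 253 in those of 5d-U and 25.9, 73.3 and 43.3 in those of 2+3d-C. It was 3.07-fold lower under compression than in 5d-U (log2 fold change -1.62, SE 0.52, adjusted p = 0.038), a call lost without 5d-U replicate 6 (log2 fold change -0.96, adjusted p = 0.19) or 2+3d-C replicate 4 or 10. Eif3a, the large scaffold of the complex, had 43.6, 25 and 33.6 RPKM in the F libraries, 24.4, 14.6 and 16.8 in those of 2d-U, 36.2, 31 and 24.1 in those of 5d-U and 61.9, 35.3 and 56.2 in those of 2+3d-C. It was 2.75-fold higher under compression than in 2d-U (log2 fold change 1.46, SE 0.39, adjusted p = 0.0144), a call lost without 2d-U replicate 2 or 3 or 2+3d-C replicate 4 (adjusted p up to 0.101) and with library size alone, and was not called against 5d-U (log2 fold change 0.75, SE 0.38, adjusted p = 0.139). Eif3e had 70.1, 77.2 and 119 RPKM in 5d-U against 28.7, 85.5 and 39.6 under compression (log2 fold change -0.79, SE 0.51, adjusted p = 0.225).

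The subunits did not keep fixed proportions. Set against the median of 12 subunits (without the paralogues Eif3j1 and Eif3j2) in the same library, the mean log2 level of Eif3a was 0.12 in F, -2.38 in 2d-U, -1.72 in 5d-U and -0.33 in 2+3d-C. Eif3b, which binds the small subunit together with Eif3a, stood at 1.99, 1.34, 0.53 and 1.99. Eif3a was thus level with the other subunits in F and several-fold under them in 2d-U. Over the single libraries it ran from -0.10 to 0.36 in F, from -2.71 to -2.02 in 2d-U, from -2.10 to -1.36 in 5d-U and from -1.23 to 0.31 in 2+3d-C, where the lowest was replicate 5. Eif3a has the longest exons of the 12 (8731 bp), and the part of transcript length in this order was not tested. Across genes, the log2 fold changes of the 53 members against exon length had a Spearman's rho of 0.20 in 2+3d-C against 5d-U and -0.33 in 2d-U against F, and genes share their libraries.

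The hypusinated and subunit-joining factors had no call between 2+3d-C and 5d-U. Eif5a had 1420.0, 1621 and 4122 RPKM in 5d-U against 1253, 3789 and 1454 under compression (log2 fold change -0.14, SE 0.49, adjusted p = 0.839), and each range is stretched by the library that stood apart. Its paralogue Eif5a2 had 1.13, 2.13 and 1.18 RPKM in 5d-U against 0.912, 0.024 and 0.662 under compression (log2 fold change -1.45, SE 0.88, adjusted p = 0.204). Eif6, which keeps the large subunit from joining too early, had 226, 186 and 472 RPKM in 5d-U against 168, 603 and 251 under compression (log2 fold change 0.21, SE 0.48, adjusted p = 0.749). Without 2+3d-C replicate 5 the signs of Eif5a and Eif6 were both negative (-0.82 and -0.50). Eif5b, the GTPase of subunit joining, had 9.49, 9.17 and 10.2 RPKM in 2d-U against 11.8, 36.6 and 30.2 in 2+3d-C (log2 fold change 1.45, SE 0.48, adjusted p = 0.0393), a call that held in 1 of the 6 fits that left out a library of the contrast (without 2+3d-C replicate 4).

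Paralogues give a comparison within a library that needs no scaling. Eif1b made up 6.28, 7.02 and 8.55% of the reads per kb on Eif1 and Eif1b in the F libraries, 22.7, 22.8 and 22.1% in those of 2d-U, 23.7, 21.9 and 28.6% in those of 5d-U and 6.57, 9.51 and 7.92% in those of 2+3d-C. The means were 7.28% ± 1.16, 22.5% ± 0.384, 24.7% ± 3.46 and 8.0% ± 1.47 (SD, n = 3). F and 2+3d-C shared one range and the uncompressed cultures another, with no library between 9.51% and 21.9%. The libraries that stood apart kept to their groups.

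Eif1ax, the X-linked eIF1A gene, followed the same order against Eif1a. Its share was 19.7, 20.9 and 26% in the F libraries, 34.2, 37.5 and 36% in those of 2d-U, 33, 32.1 and 54.9% in those of 5d-U and 20.6, 22.9 and 23.9% in those of 2+3d-C, with 5d-U replicate 6 the highest. Eif4e2 made up 11.3, 22.4 and 19.5% of the 3 cap-binding genes in the F libraries, 36.5, 35.7 and 32.7% in those of 2d-U, 28.2, 39.8 and 44.4% in those of 5d-U and 19.8, 10.9 and 17.5% in those of 2+3d-C. In these 3 families, which are not all that were looked at, each F and 2+3d-C library was below each 2d-U and 5d-U library, and the F and 2+3d-C ranges overlapped. An exact two-sided permutation test of 3 libraries against 3 cannot go below p = 0.1, and these shares are given as a description.

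Eif4a2 did not follow this order. Its share of the reads per kb on Eif4a1 and Eif4a2 was 17.4, 30.6 and 16.4% in the F libraries, 7.57, 4.88 and 4.86% in those of 2d-U, 11.8, 9.61 and 5.89% in those of 5d-U and 7.53, 2.94 and 9.16% in those of 2+3d-C, so that F stood above all cultured groups. Eif4ebp2 made up 2.68, 10.6 and 12.5% of the 4E-BP genes in F and 4.6, 2.0 and 3.09% in 2+3d-C, and at most 2.43% in the uncompressed cultures, with F replicate 1 inside the 2+3d-C range and 2+3d-C replicate 5 inside that of 2d-U. Eif2ak3 made up 22.5, 14.9 and 19.7% of the 4 kinase genes in the F libraries, 2.7, 0.384 and 2.14% in those of 2d-U, 4.06, 8.24 and 5.7% in those of 5d-U and 15.9, 4.91 and 24.5% in those of 2+3d-C.

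**Figure D3:**
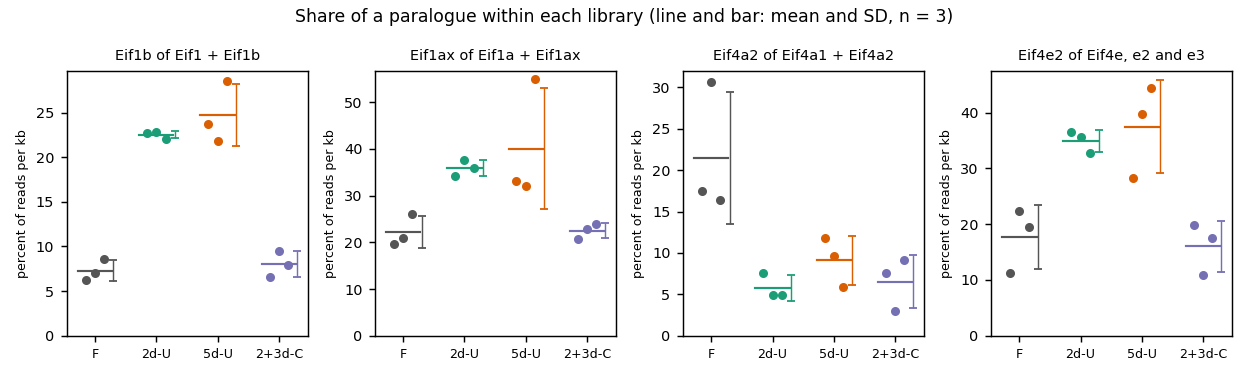
Share of a paralogue in the reads per kb of its family (percent, axis from 0) in each library (points), with group mean and SD (n = 3). Eif1b, Eif1ax and Eif4e2 take a larger share in 2d-U and 5d-U than in F and 2+3d-C in every library, whereas Eif4a2 is highest in F.

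Culture without compression was compared with the cells lysed as sorted. 22 members rose from F to 2d-U (41.5% of those tested, against 10.6% of all genes) and 3 fell (5.66% against 33.3%), 47.2% in all against 43.8%. In 5d-U 23 rose (43.4% against 11.6%) and 0 fell (against 8.9%), or 43.4% in all against 20.5%. Libraries did not overlap for 29 members that were higher in 2d-U (54.7% against 20.4%) and 5 lower (9.43% against 32.1%), and for 26 higher in 5d-U (49.1% against 21.4%) and 4 lower (7.55% against 22.8%). Among the 10816 more abundant genes 21.6% and 23.4% rose in 2d-U and 5d-U, 24.5% and 16.8% fell, and 46.1% and 40.2% were called in all. The 2 comparisons share the F libraries. DESeq2 called 22 higher and 7 lower in 2d-U and 22 and 3 in 5d-U, and removal of the trend with exon length 17 and 6, and 15 and 2. Without F replicate 4 or 5 the totals were 14 and 15 for 2d-U and 14 and 12 for 5d-U, without any 2d-U library 16, and without 5d-U replicate 6 the 5d-U total was 15. Of all tested genes, the share higher in 2d-U went from 10.6% to 6.51% without F replicate 4 and 5.61% without F replicate 5. In 5d-U it went from 11.6% to 7.77% and 6.98%. With F replicates 4 and 5 and 5d-U replicate 1, the libraries with most reads on silent families, all left out, F was at 1 library. The members' median log2 fold change was then 0.50 in 2d-U and 0.71 in 5d-U, against 0.87 and 0.90 with all libraries. Over all tested genes the medians were then -0.04 and 0.41, against -1.63 and -0.41 with all libraries.

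Of eIF2B, 4 of 5 subunits were higher in 2d-U (5 with library size alone) and 5 of 5 in 5d-U (3 once the trend with exon length was removed). Of all tested genes 10.6% and 11.6% were higher, and of the 10816 more abundant ones 21.6% and 23.4%. Eif2b1 (alpha) had 12, 15.8 and 13.2 RPKM in the F libraries, 70.4, 68 and 67.6 in those of 2d-U, 54.8, 59.2 and 89.5 in those of 5d-U and 25.6, 61.6 and 36.5 in those of 2+3d-C. It was 5.03-fold higher in 2d-U than in F (log2 fold change 2.33, SE 0.41, adjusted p = 0.00105) and 4.97-fold in 5d-U (log2 fold change 2.31, SE 0.41, adjusted p = 0.00121). Eif2b4 was 5.65-fold (log2 fold change 2.50, SE 0.51, adjusted p = 0.0026) and 6.0-fold higher (log2 fold change 2.59, SE 0.51, adjusted p = 0.0024), and Eif2b5 3.85-fold in 2d-U (log2 fold change 1.94, SE 0.42, adjusted p = 0.00359). These calls held with each library of the contrast left out. Both alternative carriers, Eif2a and Eif2d, and Eif2s1 were called higher in 2d-U and in 5d-U too.

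From F to 2d-U and to 5d-U, 10.6% and 11.6% of all tested genes rose, and 21.6% and 23.4% of the 10816 more abundant ones. Of the 14 eIF3 genes, 8 rose from F to 2d-U and 9 from F to 5d-U, and none was lower. DESeq2 called 1 lower in 2d-U, and removal of the trend with exon length left 4 and 6 higher. Eif3i, a subunit of the core, had 26, 18.3 and 16.9 RPKM in the F libraries, 91.4, 93.1 and 78.4 in those of 2d-U, 92.3, 91.1 and 193 in those of 5d-U and 28.1, 80.3 and 48.5 in those of 2+3d-C. It was 4.29-fold higher in 2d-U (log2 fold change 2.10, SE 0.46, adjusted p = 0.00391) and 6.15-fold in 5d-U (log2 fold change 2.62, SE 0.47, adjusted p = 0.00128). Eif3l, which pairs with Eif3k at the edge of the complex, had 39.2, 33 and 34 RPKM in the F libraries, 126, 121 and 123 in those of 2d-U, 104, 118 and 80 in those of 5d-U and 82.3, 103 and 85.6 in those of 2+3d-C, 3.49-fold higher in 2d-U (log2 fold change 1.80, SE 0.33, adjusted p = 0.00145). All 9 cultured libraries exceeded all 3 of F for both genes.

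Eif4ebp1 was 6.63-fold higher in 5d-U than in F (log2 fold change 2.73, SE 0.53, adjusted p = 0.00214, and log2 fold change 2.14 without 5d-U replicate 6), and Eif4e2 5.61-fold (log2 fold change 2.49, SE 0.44, adjusted p = 0.00125, and 1.89 without it). Both code for proteins that hold back cap-dependent translation, while the cap-binding Eif4e had 87.9, 32.4 and 34.1 RPKM in F and 80.2, 74 and 126 in 5d-U and was not called. Those lower in 2d-U than in F were Eif2ak3, Eif2s3y and Eif1. Eif2ak3 was 13.2-fold lower (log2 fold change -3.72, SE 0.90, adjusted p = 0.00706), and Eif1 2.47-fold (log2 fold change -1.30, SE 0.49, adjusted p = 0.046). The call of Eif1 was lost without F replicate 1 or 4 or any 2d-U library (adjusted p up to 0.11), and that of Eif2ak3 held with each library left out (log2 fold change -4.34 to -3.24).

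**Figure D4:**
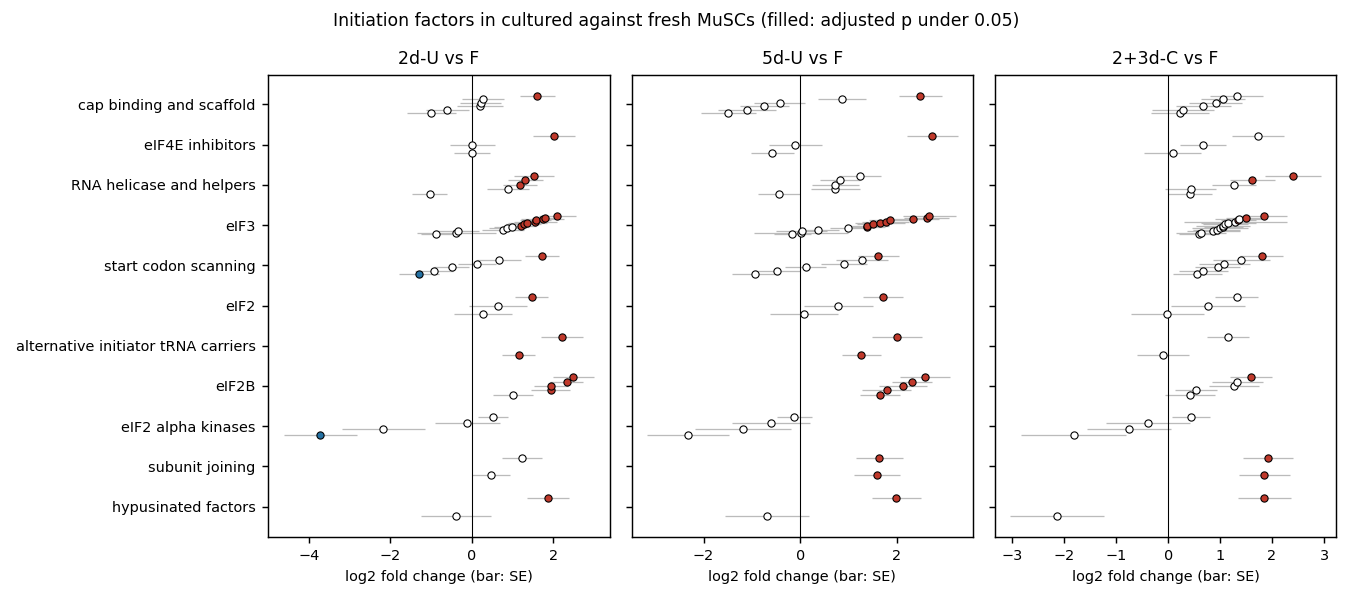
Log2 fold change of the tested members (points, with SE as bars) by role against F, in 2d-U (left), 5d-U (middle) and 2+3d-C (right), filled where the adjusted p is under 0.05 (red higher, blue lower). Eif2s3y is left out. All eIF2B points lie above 0 in each panel, and filled points number fewest on the right, where 10 members were called.

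2+3d-C against F asks which members were still off the level of sorted cells. 10 were higher (18.9% of the tested members, against 1.94% of all genes) and 0 lower (against 4.47%), 18.9% in all against 6.4%. Of the 10816 genes averaging 5 CPM or more, 4.04% were higher and 4.06% lower, 8.10% in all. For 19 members every 2+3d-C library was above those of F (35.8% against 8.79%) and for 1 below (1.89% against 18.3%). The members' median log2 fold change was 0.99, that of all tested genes -0.76 and that of the 10816 more abundant genes 0.18. Those named by the smallest p were Eif4a1 (5.28-fold, log2 fold change 2.40, SE 0.54, adjusted p = 0.0232), Eif1ad (3.48-fold, log2 fold change 1.80, SE 0.42, adjusted p = 0.0266), Eif3g (3.6-fold, log2 fold change 1.85, SE 0.45, adjusted p = 0.0303), Eif3l (2.55-fold, log2 fold change 1.35, SE 0.33, adjusted p = 0.0312) and Eif2b1 (3.02-fold, log2 fold change 1.59, SE 0.40, adjusted p = 0.0333). All 3 compressed libraries exceeded all 3 of F for each of the 5. The count rested on single libraries: it was 29 without F replicate 1, 0 without F replicate 4, F replicate 5 or 2+3d-C replicate 5, 2 without 2+3d-C replicate 10 and 5 without any 2d-U library, and each of these 5 calls was lost without F replicate 4, F replicate 5 or 2+3d-C replicate 5. The share of all tested genes called higher moved too. From 1.94% it went to 4.27% without F replicate 1, 0.109% without F replicate 4, 0.176% without F replicate 5 and 0.573% without 2+3d-C replicate 5.

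Between 5d-U and 2d-U edgeR called 0 members, against 1.87% of all genes higher and 0.243% lower, or 2.12% in all. For 11 members every 5d-U library was above those of 2d-U (20.8% against 31.7%) and for 6 below (11.3% against 5.4%). At an unadjusted p under 0.05 there were 3: Eif2s3y, Eif4g2 and Eif5b, named here after their values were seen. DESeq2 called 3 (1 higher, 2 lower), and 1 was called without 5d-U replicate 2, 2+3d-C replicate 5 or 2+3d-C replicate 10. Eif4g2 had 189, 135 and 167 RPKM in 2d-U and 45.6, 75 and 32.4 in 5d-U, without overlap.

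The gamma subunit of eIF2 has an X-linked and a Y-linked gene in the mouse, and the Y-linked Eif2s3y split the libraries within groups. It had 2923, 77 and 0 reads in the F libraries, 0 in all 3 of 2d-U, 1510.0, 0 and 1581 in those of 5d-U and 4063, 1403 and 0 in those of 2+3d-C. The Y-linked helicase Ddx3y had 18382, 207 and 0 reads in the F libraries, 0 in those of 2d-U, 975, 0 and 567 in those of 5d-U and 29384, 1633 and 0 in those of 2+3d-C, so both genes were absent or present in the same libraries. F replicate 4 held few reads of either. The call of Eif2s3y against 2d-U (adjusted p = 0.030 for 2+3d-C, 0.0287 for F) therefore moves with the presence of Y-linked transcripts, and sex and group cannot be told apart for it. Against a floor of 3 reads in each 2d-U library its mean was at least 1021-fold higher in 2+3d-C and at least 515-fold in F. These limits rest on single libraries, being 475-fold without 2+3d-C replicate 5 and 15.4-fold without F replicate 1. The call against F was lost without F replicate 1 (adjusted p = 0.0747).

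Eif2s3x had 7.72, 4.11 and 6.42 RPKM in the F libraries, 11, 9.43 and 8.08 in those of 2d-U, 5.19, 11.9 and 2.22 in those of 5d-U and 7.6, 1.11 and 9.3 in those of 2+3d-C. The 2 lowest libraries, 5d-U replicate 6 and 2+3d-C replicate 5, were the ones with most Eif2s3y per Eif2s3x (89.3% and 97.3% of the pair's reads per kb). Summed over both genes, gamma subunit RPKM was 36.9, 4.71 and 6.42 in the F libraries, 11, 9.43 and 8.08 in those of 2d-U, 20.9, 11.9 and 20.8 in those of 5d-U and 25.9, 41.8 and 9.3 in those of 2+3d-C, and the range of 2d-U lay within that of F.

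**Figure D5:**
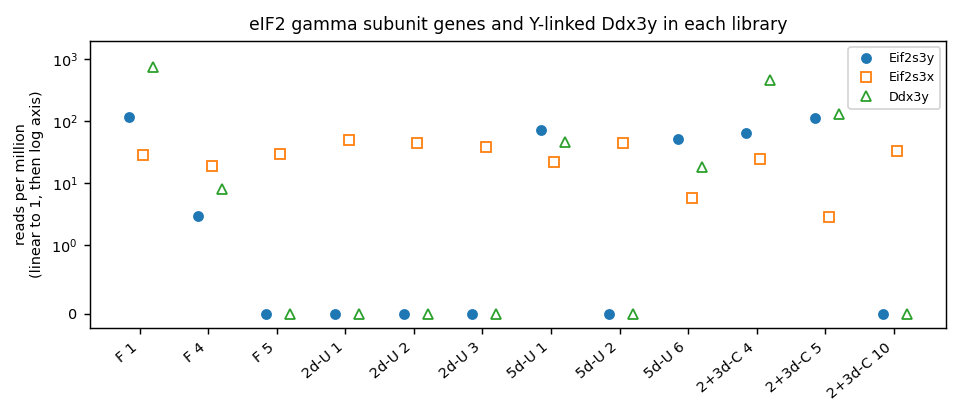
CPM (linear to 1, then log axis) of Eif2s3y, Eif2s3x and the Y-linked Ddx3y in each of the 12 libraries. Eif2s3y and Ddx3y are at 0 in F 5, the 3 2d-U libraries, 5d-U 2 and 2+3d-C 10, whereas Eif2s3x is counted in all 12.

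Genes that act on these factors were described from 3 lists. Of 15 genes that signal to initiation factors, 3 were higher and 1 lower under compression than in 5d-U (20% and 6.67%, against 9.14% and 13.4% of all tested genes), and 5 higher and 0 lower than in 2d-U (33.3% and 0, against 16% and 8.63%). Their median log2 fold change against 5d-U was 0.49, that of all tested genes -1.05 and that of the 10816 more abundant genes -0.06. The 4 with the highest mean RPKM were Ppp1r15a and Ppp1r15b, which direct the phosphatase that reverses eIF2 alpha phosphorylation, Atf4, the transcription factor translated when eIF2 is inhibited, and Dhps, the first enzyme of eIF5A hypusination. Ppp1r15a had 378 ± 103 RPKM in F (SD, n = 3), 23.5 ± 4.42 in 2d-U, 24.8 ± 10.9 in 5d-U and 1088 ± 508 in 2+3d-C (log2 fold change against 5d-U 5.46, SE 0.53, adjusted p = 1.52e-05). Atf4 had 207 ± 71.9, 129 ± 19.3, 173 ± 54.1 and 629 ± 334 RPKM (1.86, SE 0.46, adjusted p = 0.00954). Ppp1r15b rose as well (4.04, SE 0.59, adjusted p = 0.000337), and Dhps fell (-1.20, SE 0.40, adjusted p = 0.0433).

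Of 17 partners of the initiation factors, 2 were higher and 3 lower under compression than in 5d-U (11.8% and 17.6%, against 9.14% and 13.4% of all tested genes), with a median log2 fold change of -0.21. Denr, which recycles small subunits with a partner protein and resembles part of eIF2D, had 105 ± 67.3 RPKM in 5d-U and fell to 29.2 ± 19.6 in 2+3d-C (log2 fold change -1.85, SE 0.56, adjusted p = 0.0289), against 11.2 ± 5.91 in F and 59.9 ± 8.04 in 2d-U. The helicase Ddx3x, the poly(A)-binding gene Pabpc1 and its inhibitor Paip2 were not called in that comparison. Of 14 elongation and termination genes, 0 were higher and 2 lower (14.3%, against the same 13.4%), with a median of -0.03. Eef1g, a subunit of the exchange factor of eEF1A, fell from 243 ± 10.3 to 87.1 ± 30.1 RPKM (-1.48, SE 0.36, adjusted p = 0.00876), and Eef1a1, Eef2 and Etf1 were not called. Against F, 4 of these 14 were higher and 1 lower in 2d-U (28.6% and 7.14%, against 10.6% and 33.3% of all tested genes), and 4 higher and 0 lower in 5d-U (28.6% and 0, against 11.6% and 8.9%). The lower one was Eef1a2, named after its values were seen, which had at most 2.26 RPKM in any library and 0 in F replicate 1.

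Some members share sequence with other genes, and reads that fit several places were not counted. Of the 75-base windows of the longest coding transcript in GENCODE vM21, 87.4% of Eif3j2, 64.2% of Eif4ebp3, 62.9% of Eif4a1, 51% of Eif3j1, 35.7% of Eif2s3x and 25.6% of Eif1 also occur in transcripts of other genes, mostly pseudogenes for Eif4a1 and Eif1. Levels of these genes are therefore uncertain. Eif2b4, Eif2d, Eif4g1, Eif4g2, Eif4e2 and Eif3k shared at most 6.66%. In the files (build mm10) Eif1 lies at chr11:100319885-100322096, Eif2b4 at chr5:31187558-31193430 and Eif2d at chr1:131153181-131187658. 7.85% of the exon bases of Eif2b4 overlap Snx17 and 1.06% of those of Eif2d overlap Rassf5, and the counting took no account of strand.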

How the data were processed

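RNA from 12 libraries (SMART-seq v4, single-end 75-base reads) was processed by the authors with nf-core/rnaseq 1.4.2 against mm10 and GENCODE vM23, and the deposited values are raw read counts per gene from featureCounts 1.6.4, without strand. Shared reads were not counted, which lowers genes with near-identical copies. All values here were computed from those counts. Genes were filtered with filterByExpr and libraries scaled by TMM, and the quasi-likelihood test of edgeR 4.0.16 (R 4.3.3) was fitted with 1 coefficient per group over 12 libraries, with Benjamini-Hochberg adjustment over 22635 genes. 6 comparisons were made. The script was tested on simulated counts. RPKM used the exon length in the files, and CPM the library total alone. The members are set by their names, but the members, the gene lists and the tests were chosen with earlier results of these data known. Fold changes are given for called members (at most 10 per direction for 2+3d-C against 5d-U or 2d-U, at most 5 in the other comparisons, by p) and for 16 members set by name for 2+3d-C against 5d-U, while levels may be given for any member. Of each list of other genes the 4 with the highest mean RPKM are named. Depth was 12540745 to 62424851 reads, and a gene with 0 reads may have up to 3 (0.0481 to 0.239 CPM), which covers counting error only. Alternatives were DESeq2 1.42.0, library size without TMM, other filters, 2 groups alone, a replicate block, each library left out and, added after seeing the data, a trend with exon length and 2 sets of libraries left out. Promoter sequences are from RefSeq on GRCm38.p6 and figures were drawn with matplotlib 3.10.9.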

Additional observations from a re-analysis of the deposited data

How the results depend on the processing

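Eif1 above 2d-U was called in all 13 other settings, and Eif2b4 and Eif2d below both uncompressed cultures in 12 of 13, with the replicate block as the exception (adjusted p up to 0.507). Without mitochondrial genes and with genes of at least 5 CPM alone no named member lost its call. For 2+3d-C against 5d-U the total of 8 called members became 15 with DESeq2, 4 with the 2 groups alone, 4 with the replicate block, 3 with a term for reads on silent families and 5 with 5d-U replicate 6 and 2+3d-C replicate 5 left out. Against 2d-U the 12 became 5 with the replicate block. Against F the 10 became 3 with library size alone, 3 with TMM on genes of at least 5 CPM, 5 with those genes alone, 1 with the 2 groups alone, 6 with the replicate block, 6 with the trend with exon length removed, and 0 with the silent-family term or with the 3 libraries that hold most such reads left out. For 2d-U against F the 25 became 2 with the replicate block, 14 with the silent-family term and 3 without those 3 libraries, and for 5d-U against F the 23 became 0 with the replicate block and 1 without them. DESeq2 called 3 between 5d-U and 2d-U, no filter 2, the 2 groups alone 2, the replicate block 1 and removal of the length trend 1. TMM on genes of at least 5 CPM gave 15 higher and 6 lower in 2d-U, those genes alone 15 and 5, and no filter gave 5 and 2 for 2+3d-C against 5d-U. Counts over all tested genes moved with the setting too. For 2+3d-C against 5d-U the silent-family term took them from 2068 higher and 3042 lower to 1276 and 1839. Where no cause is named, the cause was not tested.

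With 1 library left out the totals ranged from 3 to 13 for 2+3d-C against 5d-U, 4 to 13 against 2d-U, 0 to 29 against F, 14 to 27 for 2d-U against F, 12 to 27 for 5d-U against F and 0 to 1 between the uncompressed cultures. Residuals of same-numbered libraries correlated at -0.39 to 0.13 over 6 pairs, and 2+3d-C shares no number with 5d-U or 2d-U. Differently numbered libraries were not compared in this way, so these values cannot decide whether a number marks a shared sort. The replicate block left 2 residual degrees of freedom, ended 28 calls of named members, and turned Eif3k between 2+3d-C and 5d-U to a log2 fold change of 0.14. Without TMM the summed RPKM of the members in 2d-U rose from 5935 to 7286, and for F, 5d-U and 2+3d-C it moved by less than the SD.

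Depth limits the members at the bottom of the range: Eif2ak3 had few reads in 2d-U, where its call against 2+3d-C was lost without replicate 2 (log2 fold change 2.86), and 3 members were not tested. 3 libraries per group leave wide intervals, so a member without a call is not shown to keep its level. Reads that fit several genes limit Eif3j2, Eif4a1, Eif3j1 and Eif2s3x among the tested members, and Eif4ebp3 among those not tested.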
